A study of Homo sapiens with 4 samples.

Results

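Zinc finger genes of chromosome 19 were described in a profile of acetylated histone H3 from melanoma cells. Members were the lines of the authors' deposited table whose gene symbol begins with ZNF and a digit and whose region lies on chromosome 19. The rule found 446 lines, which name 429 distinct regions of 91107 in the table and 242 genes. A region with a deposited distance of 0 was read as lying over a gene start, and 208 regions were of this kind. The other 221 regions lay away from the start of the gene they were named with. Of the 242 genes, 215 had a region at a start and 27 did not.

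The study measured H3K27ac, histone H3 acetylated at lysine 27, with a ChIP-seq assay in the established human melanoma line A375. Each of the 4 libraries came from A375 cells grown in serum-containing medium. In the vehicle group of 2 libraries, the cells received isopropanol for 48 h. In the octanoate group of 2 libraries, the cells received 1 mM octanoate, which is a medium-chain fatty acid, for 48 h. All libraries thus share 1 cell line, and the labels do not say whether the libraries of a group came from separate cultures.

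The authors' deposited table holds their own comparison of the libraries, 1 line per region and gene. For each region it gives a mean level over libraries, a log2 fold change, a standard error and p-values. It gives no value per library, so the spread between replicates and the depth of each library are unknown. Every error below is therefore the standard error of the authors' model. The header does not say which group is the numerator, so fold changes are called positive or negative and not higher in octanoate or in vehicle. An adjusted p-value was computed by the authors for 36436 of the regions, called tested regions here. The median log2 fold change of all tested regions was 0.32, a ratio of 1.25, and values of members are read beside it. As a check of the labelled cell type, 4 of 7 melanocyte markers had a region at the start. The levels at those starts ran from 15.1 (S100B) to 41.2 (SOX10) per kilobase of region by the authors' deposited table. Of 5 markers of other cell types, only EPCAM had one, at 19.4 per kilobase. That value lay above the one of S100B, so these levels alone do not tell the cell types apart.

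Most of these genes encode proteins with an array of DNA-binding C2H2 zinc fingers, and many carry a KRAB domain. The KRAB domain recruits TRIM28, also called KAP1, which brings in the methyltransferase SETDB1 and HP1 proteins and leads to repressive H3K9me3 chromatin, often over transposable elements. The genes arose largely by tandem duplication and stand in clusters along chromosome 19. H3K27ac marks active promoters and enhancers, and the 3′ parts of many zinc finger genes are known to carry H3K9me3 instead. A copy of a duplicated gene can share sequence with its neighbours, and the treatment of reads that fit several copies is not given in the sources used here.

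The promoters of the genes of some clusters share runs of letters, and 7 are shown because the results below return to them. Each sequence is the 250 bases before the start in the RefSeq promoter table of GRCh38.p14, read 5′ to 3′ on the strand of the gene. For 187 of the 215 genes the table held an entry, and for 183 of them (97.9%) the RefSeq start lay inside the region at distance 0. Capitals in the first 4 sequences mark TCCAATCAGG, the reverse complement of CCTGATTGGA, and CTGTCACTCA. In ZNF91, ZNF66 and ZNF85 they also mark CTGAAAAGGCTGCA. Capitals mark ACTACATTTCCCAG in ZNF790, CTTCCGG (the reverse complement of the ETS-type letters CCGGAAG) in ZNF274, and CCAAT and its complement ATTGG in ZNF554. ZNF91, ZNF66 and ZNF85 stand in the cluster with the lowest median fold change among those with at least 10 tested starts. ZNF491 stands in another cluster and shares 2 of the runs. ZNF554 had the largest fold change at a start, and ZNF274 and ZNF790, from other clusters, had positive values. The letters CTTCCGG, capitalized in ZNF274 alone, also occur in the sequences of ZNF91, ZNF66 and ZNF85.
ZNF91: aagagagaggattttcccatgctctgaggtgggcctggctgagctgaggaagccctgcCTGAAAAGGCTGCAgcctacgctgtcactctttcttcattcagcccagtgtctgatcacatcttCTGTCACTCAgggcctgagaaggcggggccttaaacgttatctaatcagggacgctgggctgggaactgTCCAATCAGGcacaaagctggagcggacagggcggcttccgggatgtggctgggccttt
ZNF66: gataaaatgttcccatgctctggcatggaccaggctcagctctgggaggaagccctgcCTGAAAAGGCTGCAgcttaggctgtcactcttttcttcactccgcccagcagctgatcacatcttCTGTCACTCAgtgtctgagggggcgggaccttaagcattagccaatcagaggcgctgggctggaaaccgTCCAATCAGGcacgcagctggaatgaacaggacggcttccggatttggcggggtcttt
ZNF85: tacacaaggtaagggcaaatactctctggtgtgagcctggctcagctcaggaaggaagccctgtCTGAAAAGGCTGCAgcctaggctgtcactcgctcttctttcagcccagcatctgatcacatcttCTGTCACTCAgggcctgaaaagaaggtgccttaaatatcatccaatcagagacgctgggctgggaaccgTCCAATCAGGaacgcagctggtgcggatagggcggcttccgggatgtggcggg
ZNF491: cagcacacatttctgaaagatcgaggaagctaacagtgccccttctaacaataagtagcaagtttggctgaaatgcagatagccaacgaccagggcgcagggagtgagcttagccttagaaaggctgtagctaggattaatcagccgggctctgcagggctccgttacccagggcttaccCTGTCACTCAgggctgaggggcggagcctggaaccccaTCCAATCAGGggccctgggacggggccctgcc
ZNF790: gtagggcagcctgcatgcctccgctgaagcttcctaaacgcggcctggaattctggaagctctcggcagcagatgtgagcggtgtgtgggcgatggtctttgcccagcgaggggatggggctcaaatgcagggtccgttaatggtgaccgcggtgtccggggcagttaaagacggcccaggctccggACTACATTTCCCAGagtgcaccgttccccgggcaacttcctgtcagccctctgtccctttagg
ZNF274: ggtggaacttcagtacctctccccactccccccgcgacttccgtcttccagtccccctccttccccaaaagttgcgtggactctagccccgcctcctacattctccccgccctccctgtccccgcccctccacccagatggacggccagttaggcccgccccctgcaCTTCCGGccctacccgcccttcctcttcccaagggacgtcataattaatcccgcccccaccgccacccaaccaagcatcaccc
ZNF554: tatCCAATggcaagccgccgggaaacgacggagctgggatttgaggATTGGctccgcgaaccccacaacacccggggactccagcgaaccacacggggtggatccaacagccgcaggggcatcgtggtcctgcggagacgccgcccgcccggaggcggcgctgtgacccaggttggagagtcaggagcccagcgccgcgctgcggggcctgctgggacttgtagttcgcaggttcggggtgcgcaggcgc

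The windows are chr19:23395472-23395721 on the minus strand for ZNF91, chr19:20776054-20776303 on the plus strand for ZNF66 and chr19:20923001-20923250 on the plus strand for ZNF85. They are chr19:11798273-11798522 on the plus strand for ZNF491 and chr19:36838388-36838637 on the minus strand for ZNF790. They are chr19:58182811-58183060 for ZNF274 and chr19:2819618-2819867 for ZNF554, both on the plus strand. The letters TCCAATCAGG began 59 bases before the start in ZNF91, 58 in ZNF66, 53 in ZNF85 and 32 in ZNF491. The letters CTGTCACTCA began 128, 127, 122 and 70 bases before the start in the same order. In the 3 genes of 1 cluster the runs thus sat at nearly the same place, and in ZNF491 both sat closer to the start. ACTACATTTCCCAG began 63 bases before the start of ZNF790, and CTTCCGG 83 bases before that of ZNF274.

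Regions over the starts of the zinc finger genes carried a lower mean level than other starts and were narrower, with a similar level per length. The median level of the 208 start regions was 60.7 in the authors' normalized units, with an interquartile range of 41.7 to 78.6 and a full range of 7.45 to 238. The 572 start regions of other genes on chromosome 19 had a median level of 93.9, and the 204 start regions of ZNF genes on other chromosomes had 75. Median widths were 1972.5 bases for the members, 2923.5 bases for other chromosome 19 genes and 2791.5 bases for ZNF genes elsewhere. Per kilobase of region, the median level was 29.8 for members, 30.3 for other chromosome 19 starts, 27.1 for ZNF starts elsewhere and 25.3 over all 10642 starts. The lower total level of the members thus went with narrower regions. Of the start regions, 7 covered the starts of 2 members and 26 also covered the start of a gene that is no member.

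The strongest start in total level was that of ZNF580, at chr19:55640063-55644997. This region was also named with ZNF581, a neighbouring gene, but not at a distance of 0. Its level in the authors' deposited table was 238, or 48.2 per kilobase. ZNF526 followed at chr19:42215209-42222114 with a level of 202, or 29.3 per kilobase, in the widest start region of the set at 6905 bases. ZNF460 at chr19:57277956-57284585 had a level of 183, or 27.6 per kilobase. The region over the start of ZNF146, whose protein consists almost wholly of zinc fingers, at chr19:36213433-36220288 had 158, or 23 per kilobase. It was also named with ZNF565, whose start lies outside it. Per length, only the first of these 4 stood well above the member median of 29.8. The authors' deposited table gives them log2 fold changes of 0.41 ± 0.22, 0.59 ± 0.21, 0.40 ± 0.23 and 0.32 ± 0.20 in that order, each ± being the authors' standard error. The smallest adjusted p-value among these 4 was 0.123, for ZNF526.

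Fold changes at the member starts were nearly all positive and small, and none was called. Of 208 start regions, 203 were tested, and 0 of them had an adjusted p-value under 0.05 by the authors' DESeq2 comparison. Over all starts of the table, 86 of 9996 tested regions were called (0.86%), and over all regions 608 of 36436 (1.67%), so few calls would fall in a set of this size at the background share. At an unadjusted p-value under 0.05, 30 of the 203 starts (14.8%) were positive and 0 negative, beside 19.2% positive over all starts and 27.5% (146 of 530) over starts of other chromosome 19 genes. The share among members was thus below both, and the differences were not tested. Of the 203 regions, 198 (97.5%) had a positive log2 fold change, beside 98.1% over all starts.

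The median log2 fold change of the 203 member starts was 0.40, with an interquartile range of 0.26 to 0.50 and a range of -0.20 to 1.13. It was 0.40 over 530 tested starts of other chromosome 19 genes, 0.37 over 198 starts of ZNF genes on other chromosomes and 0.35 over all starts. The median of the members was thus close to those of the other starts. The standard deviation of fold changes across the 203 regions was 0.19, smaller than the median standard error of a single region, 0.28. For 175 of the 203 regions, the fold change lay within 1 standard error of the median of all tested regions, and for 202 within 2 standard errors. The exception was ZNF554. Across the 203 regions, Spearman's rho of fold change with level was -0.11 and with width -0.07, as a description over regions that share the same libraries.

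Other chromosome 19 starts were called more often than starts of the table as a whole, at 15 of 530 (2.83%). The zinc finger starts had the same median as these starts from the whole chromosome, a larger standard error (a median of 0.28 against 0.25) and no call. The difference between these shares was not tested. Zinc finger genes of chromosome 19 with other symbols (those beginning ZFP, ZSCAN, ZIM or ZIK, with MZF1 and PEG3) had 6 start regions, all positive, with a median log2 fold change of 0.48 and 0 called. Of these 6, 2 had an unadjusted p-value under 0.05, beside 19.2% of all starts and 27.5% of other chromosome 19 starts.

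**Figure D1:**
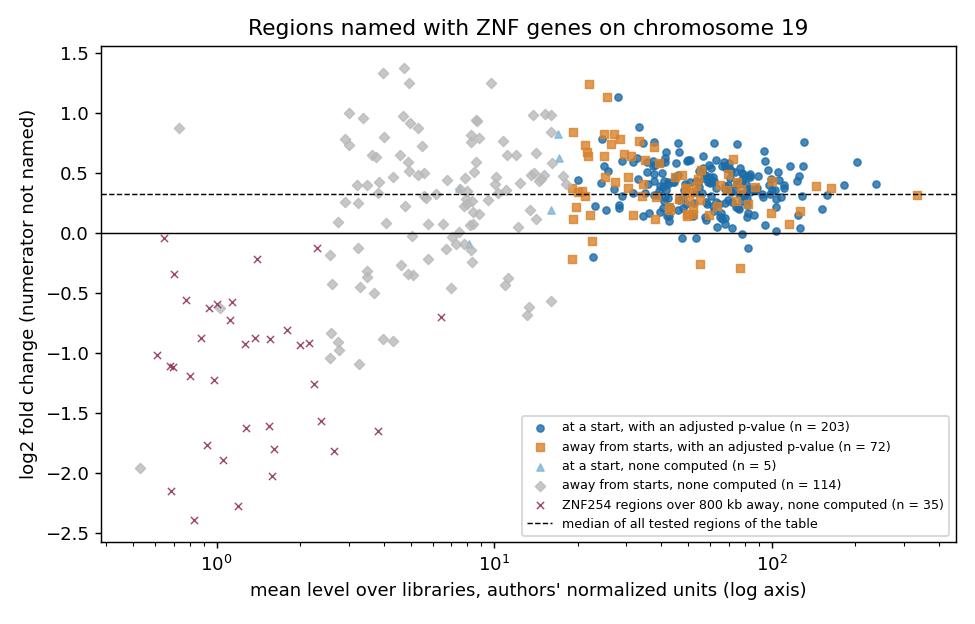
Each point is 1 of the 429 member regions, with its mean level in the authors' normalized units on a log axis and its log2 fold change on the other axis. Start regions (blue circles) lie mostly between 0 and 1 and around the dashed line at 0.32, the median of all tested regions, while 35 far ZNF254 regions (crosses) lie below 0 at levels of at most 6.45.

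The largest fold change at a start belonged to ZNF554, at chr19:2819266-2820610. By the authors' deposited table its level was 27.9, its log2 fold change 1.13 ± 0.36 and its adjusted p-value 0.0649. The start shared by ZNF540 and ZNF571 at chr19:37593875-37595667 had a level of 33.4 and a log2 fold change of 0.88 ± 0.34 by the authors' deposited table, and the adjusted p-value was 0.144. ZNF491 at chr19:11798437-11799519 had a level of 24.5 and 0.79 ± 0.41, with an adjusted p-value of 0.277 by the authors' deposited table. All 3 starts had levels under the member median of 60.7. ZNF470 at chr19:56566775-56568170 had a level of 37.7 and 0.76 ± 0.30, with an adjusted p-value of 0.164 by the authors' deposited table. ZNF575 at chr19:43524694-43528432 had a higher level of 131 and 0.76 ± 0.24, with an adjusted p-value of 0.0677 by the authors' deposited table. ZNF554 and ZNF575 were thus the starts nearest to the threshold, at the low and at the high end of the levels.

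The smallest fold change at a start belonged to ZNF350, also called ZBRK1, a KRAB repressor known to bind BRCA1. Its region at chr19:51985930-51986880 had a level of 22.8 and a log2 fold change of -0.20 ± 0.40 (adjusted p-value 0.763) by the authors' deposited table. ZNF730 at chr19:23074520-23077013 had -0.13 ± 0.25 (adjusted p-value 0.758), and ZNF431 at chr19:21142011-21143371 had -0.04 ± 0.30 (adjusted p-value 0.936), by the authors' deposited table. ZNF66 at chr19:20776250-20777574 had -0.04 ± 0.31 (adjusted p-value 0.939), and ZNF100 at chr19:21766064-21768084 had -0.01 ± 0.26 (adjusted p-value 0.988), by the authors' deposited table. These 5 were the tested starts that were not positive, and each value lay within 1 standard error of 0. ZNF730, ZNF431, ZNF66 and ZNF100 stand in the same cluster of genes.

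**Figure D2:**
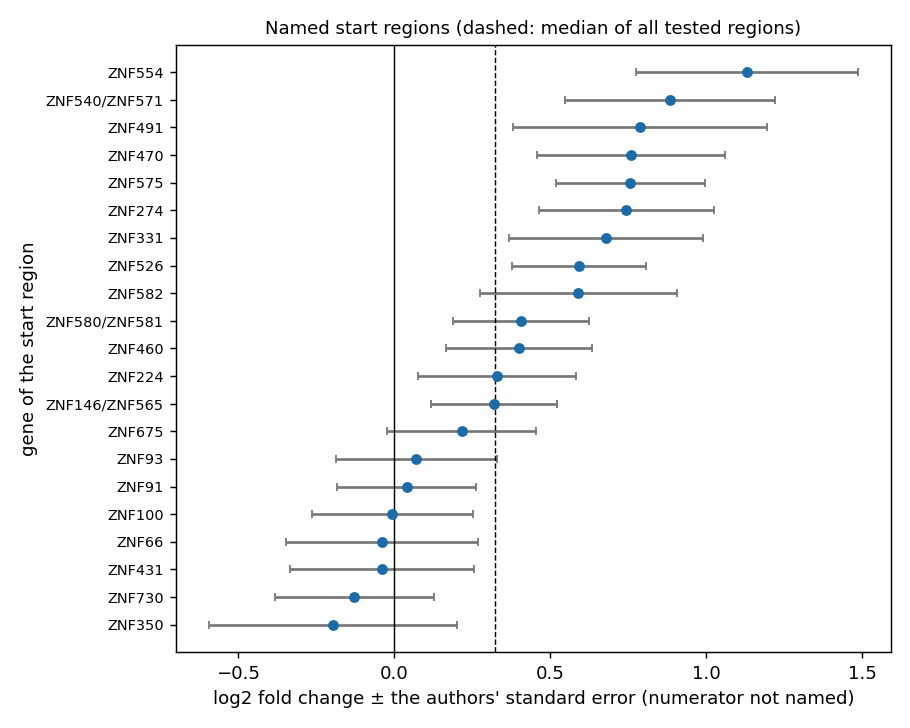
Points are the authors' log2 fold changes of the named start regions and bars their standard errors, with a dashed line at 0.32, the median of all tested regions. ZNF554 is the only start whose value lies over 2 standard errors from that line, and the bars of the 5 lowest starts cross 0.

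When starts over 1 Mb apart were put in separate blocks, the member starts fell into 14 blocks along the chromosome. Of these, 7 held at least 10 tested starts, 186 in all. The block at chr19:19668105-24088639, the fifth in order, spans 4.42 Mb and holds 31 genes, each with 1 tested start. Its median log2 fold change was 0.25, with an interquartile range of 0.10 to 0.36 and a range of -0.13 to 0.54. The other 172 tested starts had a median of 0.41. This block was thus the lowest of the 7. The other 6 had medians of 0.41 (13 starts), 0.45 (24), 0.45 (19), 0.36 (20), 0.36 (29) and 0.40 (50), in order along the chromosome.

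Of the 31 starts in that block, 21 lay below the median of all tested regions and 10 above it. In all, 72 member starts lay below that median. Of the 10 lowest member starts, 8 stood in the block, and of the 10 highest, 0. The median standard error in the block was 0.26, and each of the 31 starts lay within 2 of its own standard errors of the table median. ZNF730, ZNF431, ZNF66, ZNF100 and ZNF91 were among those that lay more than 1 standard error below it. The level does not mark the block out as weak: its median was 71.8, beside 60.7 over all member starts. The only start region of another gene inside the block had a log2 fold change of 0.16 in the authors' deposited table. Inside the other blocks with at least 10 tested starts, such starts had medians of 0.42 (21 regions), 0.34 (2), 0.23 (2), 0.45 (14), 0.13 (1) and 0.38 (10), in order. A low value of such a start was thus not limited to the fifth block. Within 3 Mb of the fifth block, 59 starts of other genes had a median of 0.42. Toward higher coordinates, regions were named with ZNF254 as far as 2523 kb away. These 59 starts thus lie toward lower coordinates only. The 20 tested member regions away from starts inside the fifth block had a median of 0.29. The fifth block was noticed in these values, and no test of it was made.

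**Figure D3:**
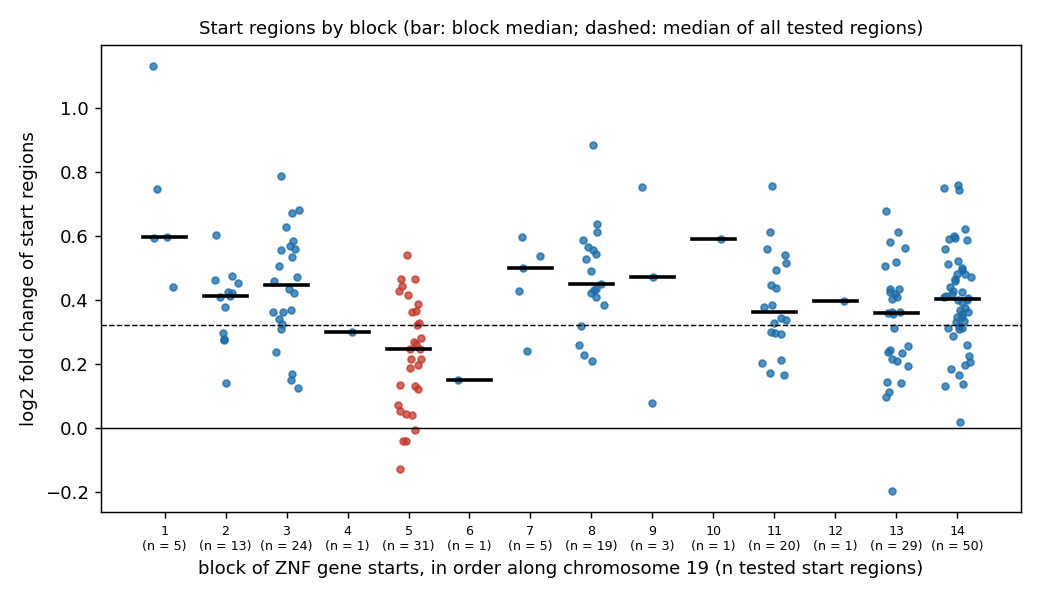
Each point is the log2 fold change of 1 tested member start, grouped in the 14 blocks in order along chromosome 19, with a bar at each block's median and a dashed line at 0.32. The fifth block (red, 31 starts) has a median of 0.25 and 4 of the 5 values below 0.

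Letters in the member promoters differed from those of other genes. They were counted on both strands in the 300 bases from 250 before to 50 after the RefSeq start, for genes whose start lay inside a region at distance 0. The letters CCGGAAG, the core bound by ETS factors, occurred in 79 of 183 member promoters (43.2%), in 35.5% of 169 ZNF promoters on other chromosomes and in 20.1% of all 8864 promoters. Among other chromosome 19 genes the share was 20.2%. CCAAT, bound by NF-Y, occurred in 55.7% of member promoters and 36.2% of all. The GC-box letters GGGCGG occurred in 66.7% and 72.9%, and TATAAA in 2.19% and 4.91%. Member promoters were also less rich in G and C, with a median of 60.7% beside 66.0% in all genes, and held a median of 20 CpG dinucleotides beside 27. A match of letters is a description and does not show that a factor binds.

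The 4 longer runs were found by counting in the member promoters: for lengths of 10 and 14, those most over-represented there and present in under 1% of promoters of genes outside the ZNF family. CCTGATTGGA (which contains the complement of CCAAT) occurred in 39 of 183 member promoters (21.3%), in 10 of 169 ZNF promoters elsewhere (5.92%) and in 12 of 8512 promoters of genes outside the family (0.141%). CTGTCACTCA occurred in 30 (16.4%), 7 (4.14%) and 18 (0.211%) of them, and in 0.62% of all promoters. ACTACATTTCCCAG occurred in 14 (7.65%), 2 (1.18%) and 33 (0.388%). CTGAAAAGGCTGCA occurred in 12 (6.56%), 2 (1.18%) and 0, which is 0.158% of all promoters. The runs were chosen for these shares, so the shares are a description.

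Each longer run was limited to a few blocks. CCTGATTGGA was present in 21 of 24 promoters of the fifth block, in 15 of 24 of the third block (chr19:11504557-12612429) and in 3 of 5 of the first (chr19:2819266-2945975), and in none of the others. CTGTCACTCA was present in 19 of 24 of the fifth block and 11 of 24 of the third. CTGAAAAGGCTGCA was found in 12 of 24 of the fifth block and nowhere else among the members. ACTACATTTCCCAG stood instead in 6 of 21 promoters of the eighth block (chr19:36213433-37720026), 6 of 17 of the eleventh (chr19:43524694-45077029), 1 of 3 of the ninth and 1 of 26 of the thirteenth. CCGGAAG was common in the fifth block (17 of 24) and in the fourteenth (30 of 44), and rare in the third (2 of 24). None of the 4 longer runs was found in the second block (0 of 12), the seventh (0 of 4) or the fourteenth (0 of 44).

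Starts with these letters did not all have the same fold changes. Members with CCTGATTGGA had a median log2 fold change of 0.33 and those without it 0.42. Within the third block the medians were 0.37 with and 0.51 without, and within the fifth 0.22 and 0.25. For CTGTCACTCA the medians were 0.47 with and 0.39 without in the third block, and 0.20 and 0.36 in the fifth. The direction for CTGTCACTCA thus turned between the blocks. In the fifth block the starts with CTGAAAAGGCTGCA had a median of 0.13 and those without it 0.29. On other chromosomes the 10 ZNF starts with CCTGATTGGA had a median of 0.20, beside 0.37 over all ZNF starts there, and the 7 with CTGTCACTCA had 0.40. Outside the ZNF family the direction was the other one: the 12 starts with CCTGATTGGA had a median of 0.37 and those without it 0.35. These differences between medians were not tested. Letters, block and shared ancestry of the genes cannot be told apart here.

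Genes with a known role were looked at whatever their values. ZNF91 and ZNF93 encode KRAB proteins known to silence retrotransposons, SVA elements and L1 elements respectively. The ZNF91 start at chr19:23393003-23396278 had a level of 127 (38.8 per kilobase) and a log2 fold change of 0.04 ± 0.22 by the authors' deposited table, and the adjusted p-value was 0.916. The ZNF93 start at chr19:19899949-19902349 had a level of 94.9 (39.5 per kilobase) and 0.07 ± 0.26, with an adjusted p-value of 0.869 by the authors' deposited table. Both starts lie in the fifth block, had a level per length above the member median of 29.8, and had intervals that hold 0 and the table median. The 95% interval ran from -0.40 to 0.48 for ZNF91 and from -0.44 to 0.58 for ZNF93, from the authors' standard errors.

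ZNF91 was named with 7 regions, the others 18.9 to 139 kb from the start. The region 75.1 kb away had a level of 33.4 and a log2 fold change of 0.77 ± 0.34 in the authors' deposited table, with a p-value of 0.0222 and an adjusted p-value of 0.204. The region 18.9 kb away had a level of 59.7 and 0.15 ± 0.28 in the authors' deposited table. The other 4 were not tested, with levels of 5.51 to 11.0 and log2 fold changes of 0.01 to 0.94 by the authors' deposited table. The 7 regions of this gene thus ran from 0.01 to 0.94, with wide errors at the low levels. The 203 tested member starts ran from -0.20 to 1.13, with a standard deviation of 0.19.

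ZNF274 is known to bring SETDB1 and TRIM28 to the 3′ ends of zinc finger genes. Its start at chr19:58182391-58184383 had a level of 75.1 (37.7 per kilobase) and a log2 fold change of 0.74 ± 0.28 in the authors' deposited table. The p-value was 0.00781 and the adjusted p-value 0.139, so it was not called. ZNF224, a repressor of the aldolase A gene and a cofactor of WT1, had a start at chr19:44093501-44096374 with a level of 78.1 and 0.33 ± 0.25 (adjusted p-value 0.437) by the authors' deposited table. Of ZNF91, ZNF93, ZNF224 and ZNF274, only ZNF274 was over 2 standard errors above 0, and it stands in the fourteenth block, far from ZNF91 and ZNF93. ZNF675, known as TIZ for its binding of TRAF6, had a start at chr19:23684804-23687665 with a level of 104 and 0.22 ± 0.24 (adjusted p-value 0.575) by the authors' deposited table.

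ZNF331, imprinted in some tissues, had 4 regions, and the one at its start (chr19:53520191-53522166) had a level of 41.6 and a log2 fold change of 0.68 ± 0.31 (p-value 0.0294, adjusted p-value 0.226) by the authors' deposited table. The other 3 had levels of 7.90 to 25.1 and values of 0.28 to 0.47 in the authors' deposited table. ZNF582, a gene known for promoter methylation in cancers, had a start at chr19:56392772-56394066 with a level of 35.5 and 0.59 ± 0.32 (adjusted p-value 0.292) by the authors' deposited table. Its other region, 24.3 kb away, had a level of 35.1 and 0.61 ± 0.32 by the authors' deposited table. All regions of both genes had positive values, over a wider range in ZNF331 than in ZNF582. ZNF154, ZNF382 and ZNF667 were not analysed here.

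Away from starts, member regions were weaker and narrower than at starts, as regions of the table were in general, and the tested fold changes were also mostly positive. The median level of the 221 regions was 8.37, or 15.9 per kilobase, and the median width 547 bases. Over all regions away from starts these medians were 9.94, 14.7 per kilobase and 732 bases. The 221 include 35 far ZNF254 regions, described below, with a median level of 1.19. Only 72 (32.6%) were tested, all above a level of 18.4. By the authors' DESeq2 comparison 0 of the 72 were called, beside 522 of 26440 tested regions away from starts (1.97%) and 25 of 767 on the rest of chromosome 19 (3.26%). At an unadjusted p-value under 0.05, 10 of the 72 (13.9%) were positive and 0 negative. The positive share was 17.5% over all regions away from starts and 29.7% on the rest of chromosome 19, and the negative share over all was 0.654%. Of the 72, 68 (94.4%) were positive, with a median log2 fold change of 0.37 and an interquartile range of 0.22 to 0.54. The median was 0.46 over other chromosome 19 regions away from starts, 0.32 over regions of ZNF genes elsewhere and 0.31 over all such regions. The members thus lay between the rest of their chromosome and the table, closer to the table. No test of these differences was made.

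**Figure D4:**
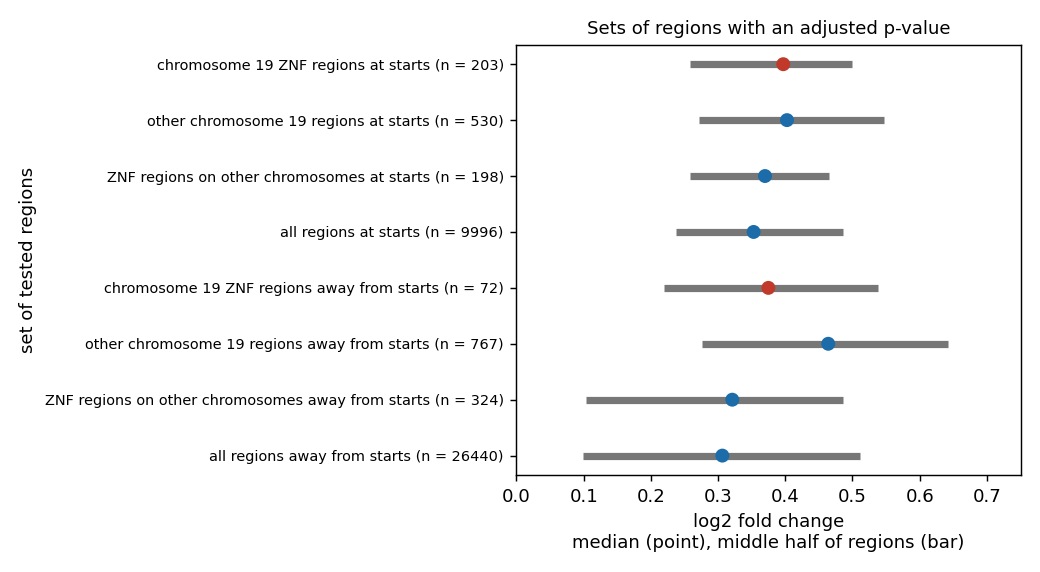
Points are medians of the authors' log2 fold changes over the tested regions of each set and bars their interquartile ranges. The member sets (red) have medians of 0.40 at starts and 0.37 away from them, inside the range of the other sets, 0.31 to 0.46.

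The largest value away from starts was at chr19:9596533-9598425, 12 kb from the start of ZNF121. Its level was 21.9 and its log2 fold change 1.25 ± 0.40 by the authors' deposited table, and the adjusted p-value was 0.0708. A region at chr19:9699605-9700842, named with ZNF562 at 24.6 kb, had a level of 25.5 and 1.14 ± 0.37 (adjusted p-value 0.0818) by the authors' deposited table. ZNF846, at chr19:9790992-9792615 and 22.3 kb, had 0.83 ± 0.38 (adjusted p-value 0.222) by the authors' deposited table. These 3 regions lie close together on the chromosome. ZNF114 (chr19:48290143-48291389) had 0.84 ± 0.41 and ZNF404 (chr19:43901000-43902247) had 0.82 ± 0.40 by the authors' deposited table, and adjusted p-values of 0.256 and 0.249. All 5 had levels of 19.2 to 27.1, near the lowest level that was tested.

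Only 4 of the 72 values were negative. They belonged to 2 regions of ZNF536, at chr19:30576341-30580294 (-0.29 ± 0.28) and chr19:30449779-30450950 (-0.21 ± 0.40), and to ZNF586 at chr19:57802419-57804848 (-0.26 ± 0.26) and ZNF543 at chr19:57301475-57302919 (-0.07 ± 0.40), in the authors' deposited table. The next lowest, 0.695 kb from the start of ZNF446 and also named with ZNF324, was chr19:58474711-58478921. It had 0.07 ± 0.34 and a level of 116 in the authors' deposited table. Their adjusted p-values ran from 0.513 to 0.917. None of the 5 lay 2 standard errors from 0.

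The highest level of any member region, 334, was not at a start. It was in the 11111-base region chr19:23546547-23557658, 130 kb from the start of ZNF675. Per kilobase its level was 30.0, close to the member starts, and its log2 fold change was 0.32 ± 0.20 in the authors' deposited table. Regions near ZNF628 (chr19:55484369-55489277, level 163, 8.04 kb away) and ZNF574 (chr19:42074748-42078725, level 145, 6.27 kb away) had 0.37 ± 0.22 and 0.40 ± 0.23 in the authors' deposited table. These broad regions away from starts thus had the fold change of the table as a whole.

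By distance, 18 regions lay under 1 kb from the start, 48 at 1 to 10 kb, 102 at 10 to 100 kb, 18 at 100 to 800 kb and 35 farther. The medians of the tested ones were 0.39 (7 regions), 0.39 (14), 0.38 (45) and 0.16 (6) for the first 4 classes, and none of the farthest was tested. Up to 100 kb the median was thus 0.38 or 0.39 at every distance. The low value at 100 to 800 kb rests on 6 regions of a few genes.

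ZNF536 encodes a zinc finger protein of neural tissue without a KRAB domain. It had 16 regions, none at its start, at distances of 2.12 to 347 kb. Of these, 5 were tested, with levels of 19.1 to 77.6 and log2 fold changes of -0.29 to 0.36 in the authors' deposited table. Its regions away from the start were up to 4690 bases wide, and it was 1 of the 27 members without a region at a start. ZNF507 had 7 regions, the same number as ZNF91. Most members had few: 156 genes had 1 region, 46 had 2, 21 had 3 and 19 had more.

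ZNF254 was named with 39 regions, the most of any member. Its start region at chr19:24086384-24088639 had a level of 78.5 and a log2 fold change of 0.26 ± 0.24 in the authors' deposited table, and 3 more regions lay within 75.2 kb. The other 35 stretched over chr19:24891577-26610505, 804 to 2523 kb from the start, an interval within the centromeric part of the chromosome. Their median level was 1.19, with a range of 0.61 to 6.45, and their median width was 257 bases. None of the 35 was tested. All 35 fold changes were negative, with a median of -1.01 and a range of -2.39 to -0.04. The median standard error was 1.42, larger than the typical value itself, and at an unadjusted p-value under 0.05 there were 0, the smallest being 0.0607. Each region alone is therefore not distinguishable from 0, and the shared sign is a description of regions that share the same libraries.

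Other regions of the same level did not share 1 sign. Of 29819 other regions with a level in the same range, 43.0% were negative, with a median of 0.13. On the rest of chromosome 19 it was 36.4% of 568, and over 800 kb from a start 47.8% of 995. Nearer in level, within the interquartile range of the 35, 214 of 368 other regions were negative (58.2%), with a median of -0.28 and a median standard error of 1.38. The share of negative values was thus larger at the lowest levels in general, and larger still among the far ZNF254 regions. Without them, the 114 untested member regions away from starts had a median log2 fold change of 0.33, and 71.1% were positive. Whether reads align uniquely in that interval was not tested.

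**Figure D5:**
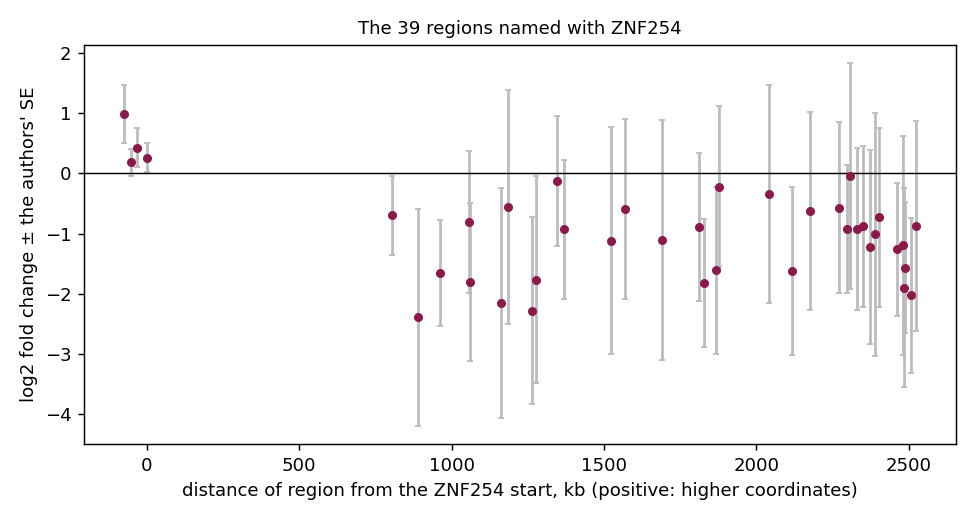
Points are the authors' log2 fold changes of the 39 regions named with ZNF254 and bars their standard errors, by distance from the gene's start in kilobases toward higher coordinates. The 4 near regions are positive and the 35 beyond 800 kb are negative, with a median standard error of 1.42.

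The machinery through which KRAB zinc finger proteins act was looked at in a list of 15 genes. In it TRIM28 is the scaffold, SETDB1 the methyltransferase, and CBX1, CBX3 and CBX5 the HP1 proteins. MPHOSPH8, FAM208A and PPHLN1 form the HUSH complex, MORC2 acts with it, and ATRX and DAXX deposit a histone variant. Of the 15 genes, 12 had a region at the start, and all 12 fold changes were positive, with a median of 0.27. By the authors' DESeq2 comparison 0 of the list's 27 tested regions were called, beside 1.67% of all tested regions, and 3 had an unadjusted p-value under 0.05 (11.1%, beside 18.4% of all tested regions). The TRIM28 start, also on chromosome 19, had a level of 167 (38.2 per kilobase) and a log2 fold change of 0.22 ± 0.24 in the authors' deposited table. SETDB1 had 0.32 ± 0.25 and DNMT1, the maintenance methyltransferase of DNA, 0.14 ± 0.24 in the authors' deposited table. The largest was MPHOSPH8 with 0.53 ± 0.25 (p-value 0.0304, adjusted p-value 0.228) by the authors' deposited table. The starts of these genes were thus positive, as most of the zinc finger starts were. Of the 12, 3 lay above the table median of 0.32, beside 131 of the 203 tested zinc finger starts, a difference that was not tested. Of 3 factors known to act at such promoters, ZNF143 had 0.13 ± 0.22, YY1 0.21 ± 0.24 and NRF1 0.19 ± 0.22 in the authors' deposited table, and 0 were called.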

How the data were processed

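H3K27ac chromatin immunoprecipitation libraries of A375 cells, 2 vehicle and 2 octanoate, were grouped by the treatment in the labels. The authors' steps named in the submitters' processing notes are Trim Galore, cutadapt, FastQC, Bowtie2, Picard, MACS2, featureCounts, DESeq2 and bedtools 2.29.1 with the build hg38, without roles or order. Per the file headers, the deposited table holds DESeq2 results. Its mean level is a signal normalized by the authors, with scaling not given in the sources used here. Per the file headers, the fold change and its standard error are log2 values, and the header does not name the numerator. The statistic is a score given by the authors. The deposited p-value and adjusted p-value are the authors', and an adjusted value of 1 was read as not computed, since Benjamini-Hochberg adjustment over the 36436 others gave the deposited values back to within 1.58e-14. The depth per library is unknown, and 0 columns of single libraries were left out.

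Lines that repeat a region were merged. No library could enter a fit, so the authors' calls (adjusted p-value under 0.05) were counted, and medians and shares described, beside all tested regions. The 95% intervals are from the authors' standard errors and the normal distribution. Distance is in bases, and coordinates are those of the deposited table. Of 242 symbols, 240 were current RefSeq symbols. RefSeq lists 246 protein-coding ZNF symbols on chromosome 19, of which 236 were named in the table and 209 had a start region. Letters were counted on both strands in promoters of the RefSeq table (GRCh38.p14). The longer runs were found in at least 5 member promoters, shared no 6 bases, and were taken 2 per length.

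Named regions were, at starts, the 5 largest and 5 smallest fold changes, the 3 highest levels and the 3 widest, and away from starts the 5 largest, 5 smallest and the 3 highest levels. The 3 genes with most regions and genes of known role were added, and genes printed with promoters were chosen after their values were seen. The members, lists and rules were chosen with earlier results of these data known. Blocks, the ZNF254 interval, the longer runs and their alternatives were chosen after seeing the data. Calculations used Python 3.11.15, pandas 2.3.3, numpy 2.4.6 and scipy 1.17.1, with centring and letter matching tested on simulated data.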

Additional observations from a re-analysis of the deposited data

How the results depend on the processing

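The count of member calls stayed 0 at an adjusted p-value under 0.01, with a minimum size of 1 for the log2 fold change, with every line counted, with adjustment over all distinct regions (smallest adjusted p-value 0.156) and after centring on the median of tested regions (smallest 0.679). Over the whole table, 608 calls became 45 after centring and 250 with adjustment over all distinct regions. Centring subtracts 0.32 from each value. It left medians of 0.074 at starts and 0.051 away from them, with 64.5% and 59.7% positive, and turned the median of the fifth block to -0.076. It also turned 10 of 43 named regions: ZNF91 to -0.28 at its start and -0.17 at 18.9 kb, ZNF93 to -0.25, ZNF446 with ZNF324 to -0.25, ZNF675 to -0.11 at its start, -0.17 at 11.9 kb and -0.0072 at 130 kb, ZNF146 with ZNF565 to -0.0041, and 2 regions of ZNF536 to -0.18 and -0.17. With only regions of level 100 or more kept, 100% were positive both at starts (23 regions) and away (6 regions). Without the filter on an adjusted p-value, the median away from starts was 0.27 with 67.4% positive, as 149 untested regions enter, 35 of them the far ZNF254 regions. Per kilobase the median level at starts was 29.8. The fifth block kept its median of 0.25 with gaps of 500 kb or 2 Mb and had 0.23 without shared regions. The ZNF254 median was -0.97 beyond 1500 kb and -0.93 among those with a level of 1 or more. No paired analysis was possible because the comparison comes with no value per library. The replicate block, each library left out and TMM against DESeq2 size factors need such values and were not run. With 2 libraries a group and unknown depth, the errors are those of the authors' model, and small differences at starts were not detectable.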
